A study of Mus musculus with 6 samples.

Results

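Secreted proteins that restrain or amplify Wnt signaling were compared between Wnt4hi and Wnt4low islet cells of newborn mice. The members are 10 genes of the 45616 features tested: the inhibitors *Sfrp1*, *Sfrp2*, *Sfrp5*, *Frzb*, *Dkk2*, *Dkk3* and *Wif1*, the R-spondin *Rspo3*, and the R-spondin receptors *Lgr4* and *Lgr5*. They were chosen by name, and every probe whose RefSeq transcript belongs to one of them was taken, which gave 13 probes. *Frzb*, *Dkk3* and *Lgr4* have more than 1 probe each, and probes of 1 gene are not replicates of a condition.

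By the methods of the study, all 6 arrays hold RNA of islet cells from *Wnt4eGFPCre; mTmG* pups at postnatal day 1 (P1). The pups were bred on C57BL/6J, a background that those methods do not name. In these mice *Wnt4eGFPCre* is a knock-in tracer allele, and Cre turns on a membrane GFP from *mTmG* in cells that have transcribed *Wnt4*. The methods give this 1 genotype for both populations, but elsewhere the study labels the GFP-negative side as without the tracer allele, so whether both populations carry both alleles is not settled. Cells were separated by FACS into GFP-positive cells, called Wnt4hi, and GFP-negative cells, called Wnt4low. GFP therefore marks a history of *Wnt4* transcription and not its level at the time of sorting. The methods place the onset in late gestation or later, but the study also detected *Wnt4* in a subset of alpha cells earlier in gestation. The sort was on GFP, which the tracer also switches on in part of the alpha cells, with no beta cell gate stated for these samples. There were 3 arrays per population, Wnt4hi replicates 2, 3 and 4 and Wnt4low replicates 1, 3 and 4, and each array received the pooled islets of 3 or 4 pups. p-values measure the spread between these pools, and 3 arrays against 3 cannot give an exact permutation p below 0.1 (two-sided).

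Wnt ligands bind Frizzled receptors together with the co-receptors Lrp5 and Lrp6. Secreted Frizzled-related proteins (Sfrp genes and *Frzb*) and *Wif1* bind the ligand outside the cell, whereas Dickkopf proteins (Dkk genes) act mostly on the co-receptors. R-spondins work in the opposite direction: together with the Lgr receptors they hold back the ubiquitin ligases Znrf3 and Rnf43, which remove Frizzled from the cell surface. In the pancreas, mesenchymal and mesothelial cells are known sources of several of these secreted proteins, and endocrine cells respond to Wnt signals.

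Values below are normalized log2 intensities, 1 unit being a factor of 2 in brightness on the array, and they allow a gene to be compared between arrays but not with another gene. A probe counts as measured on an array where the scanner software called it well above background. Between 70.5% and 79.5% of 59305 spots were well above background on the Wnt4hi arrays and between 73.1% and 76.9% on the Wnt4low arrays, and 0 spots were saturated. *Wnt4*, the gene behind the sort, had 11.20, 10.53 and 10.77 in Wnt4hi replicates 2, 3 and 4 and 9.85, 10.11 and 9.31 in Wnt4low replicates 1, 3 and 4. All 3 Wnt4hi arrays lay above all 3 Wnt4low arrays, with a log2 fold change of 1.08 (SE 0.27, limma adjusted p = 0.212).

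Of the 10 genes, 1 was lower in Wnt4hi at the unadjusted threshold of 0.05 that the methods of the study use (*Dkk3*), 0 were higher, and 9 did not pass. Over all features 10.5% passed that threshold in either direction, 5.53% higher in Wnt4low and 5.02% higher in Wnt4hi, so 1 gene of 10 is near the background share. After Benjamini-Hochberg adjustment of limma's p over all features 0 of the 10 genes passed, against 0.438% of all features, and at the level of single probes 0 of 13 passed, against 0.475%. The arrays of one population lay wholly above or below those of the other for 2 of the 10 genes (*Dkk3* and *Wif1*), against 16% of all features. The fitted differences were above 0 for 5 genes and below 0 for 5, with a median of 0.08, and the median over all features was 0.07. Well above background on all 6 arrays were 6 genes, 1 further gene (*Sfrp2*) was so on all 3 arrays of 1 population, and *Wif1* was so on 0 arrays.

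**Figure D1:**
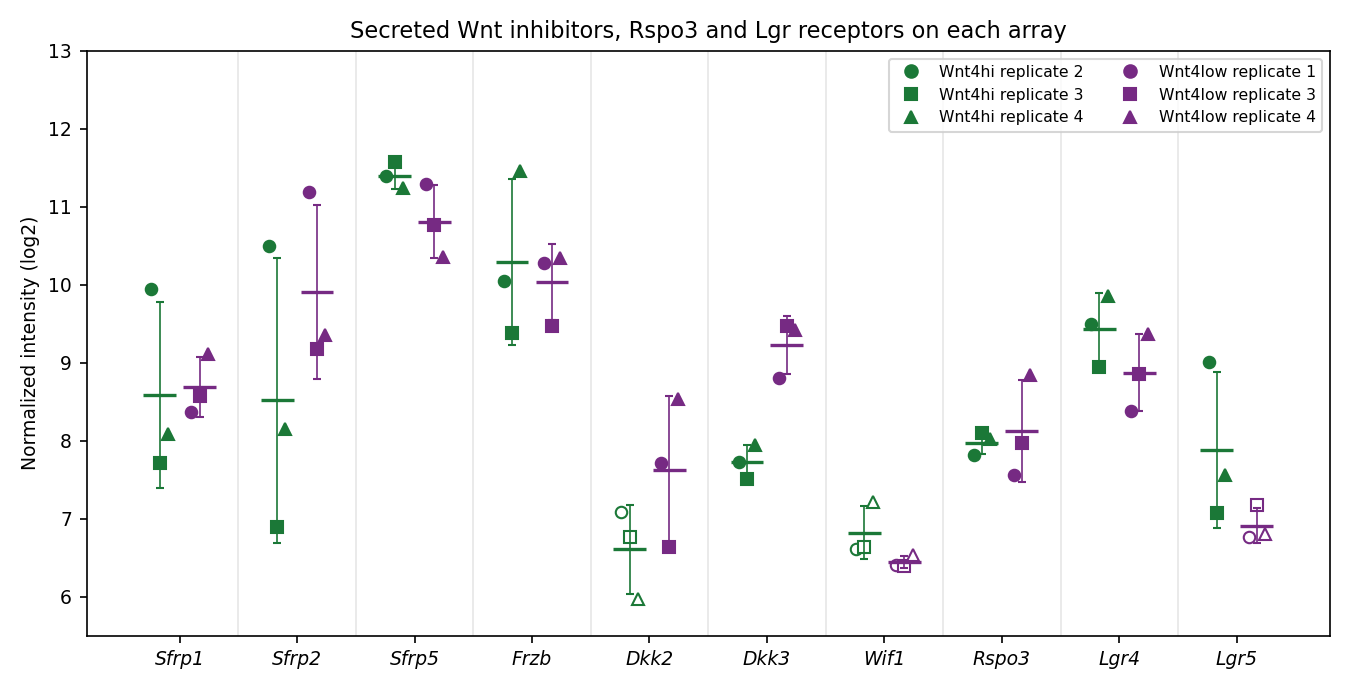
Normalized log2 intensity (vertical axis) of each gene on each array, with Wnt4hi in green and Wnt4low in purple; points are arrays, horizontal bars means and whiskers SD (n = 3 per population), and hollow symbols mark a population in which the probe was well above background on 0 arrays. *Dkk3* is the gene measured on all 6 arrays whose populations lie apart, and in *Sfrp1*, *Sfrp2* and *Lgr5* the Wnt4hi replicate 2 lies well above the other Wnt4hi arrays.

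*Dkk3* gave the largest difference relative to its error among the 10 genes. It encodes a divergent Dickkopf protein whose effect on Wnt signaling varies with the cell. The probe that stands for the gene, the brightest of its 2, had 7.73, 7.51 and 7.95 in Wnt4hi replicates 2, 3 and 4 and 8.80, 9.47 and 9.42 in Wnt4low replicates 1, 3 and 4. Every Wnt4hi array lay below every Wnt4low array, and each population was tight. The means were 7.73 ± 0.22 (SD, n = 3) in Wnt4hi and 9.23 ± 0.37 (SD, n = 3) in Wnt4low. The level was 2.83-fold lower in Wnt4hi, a log2 fold change of -1.50 (SE 0.23, 95% interval -2.06 to -0.94). This passed limma's unadjusted threshold and ranked 365 of 45616 features. The adjusted p from limma was 0.0708, which misses the threshold, and the exact permutation p was 0.1, the smallest that this design can give.

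The second *Dkk3* probe had 6.50, 6.52 and 8.94 in Wnt4hi and 7.97, 9.80 and 10.50 in Wnt4low, in the same replicate order. Here Wnt4hi replicate 4 was high and lay above Wnt4low replicate 1, so the populations overlapped, and the probe was well above background on 1 Wnt4hi array and on all 3 Wnt4low arrays. Its log2 fold change had the same sign, -2.10 (SE 0.90, limma adjusted p = 0.479). The value for the gene passed the unadjusted threshold under all 17 other ways of processing that were run, leaving out each array included. Its log2 fold change ran from -1.81 to -1.32, the latter in the deposited normalized table, and was -1.80 where the probes of the gene were averaged. It passed after adjustment in 1 of them, where dim probes were left out before the fit (adjusted p = 0.0380), and adjusted p was 0.0602 to 0.306 in the others.

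The populations differed in markers of other cell types, and these differences run beside that of *Dkk3*. All 8 endothelial markers were lower in Wnt4hi at the unadjusted threshold and 7 of them after adjustment. Their mean log2 intensity was 8.17 to 8.48 on the Wnt4hi arrays and 11.64 to 12.48 on the Wnt4low arrays, and 1 of them, *Tie1*, was well above background on 0 Wnt4hi arrays. *Plvap*, a protein of endothelial fenestrae, had means of 8.89 ± 0.14 in Wnt4hi and 12.99 ± 0.69 in Wnt4low (SD, n = 3 each). All 7 fibroblast and mesenchyme markers had fitted differences below 0, and 4 of them passed the unadjusted threshold. Of the pericyte and smooth muscle markers 3 of 6, of the leukocyte markers 3 of 6 and of the mesothelial markers 1 of 4 were lower in Wnt4hi at the same threshold.

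Endocrine markers ran the other way for the most part. Of 8 beta cell markers 5 were higher in Wnt4hi, with mean levels of 14.18 to 14.42 against 12.72 to 13.83 in Wnt4low, and of 4 alpha cell markers 2 were higher. Of the 3 delta cell markers 1 was higher and 2 were lower. In sorted bulk samples, fewer cells of a type and less RNA per cell cannot be told apart, and the part of these other cells in the difference of *Dkk3* was not tested.

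*Dkk2* encodes a Dickkopf protein that can inhibit or activate the pathway, depending on the cell. It had 7.09, 6.77 and 5.98 in Wnt4hi replicates 2, 3 and 4 and 7.71, 6.63 and 8.53 in Wnt4low replicates 1, 3 and 4. The 3 Wnt4hi arrays were not well above background and 2 Wnt4low arrays were, and the low value of Wnt4low replicate 3 made the populations overlap. With Wnt4low replicate 3, not well above background, at its measured value, the mean was at least 1.22-fold lower in Wnt4hi. This bounds the Wnt4hi side only, so the size of the difference is not settled. The bound rests on Wnt4low replicate 4 and is lost without it. The fitted difference was -1.02 (SE 0.53, 95% interval -2.30 to 0.27, limma adjusted p = 0.602). Without Wnt4low replicate 3 it was -1.51 and passed the unadjusted threshold (limma adjusted p = 0.296), and without Wnt4low replicate 4 it was -0.57 and did not pass.

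Among the Frizzled-related proteins 0 of 4 genes passed the threshold and all 4 overlapped between the populations. Fitted on the deposited normalized table, 3 of the 4 passed the unadjusted threshold and 0 after adjustment, *Sfrp1* (-0.85) and *Sfrp2* (-2.12) lower and *Sfrp5* (0.65) higher in Wnt4hi. In that fit 12.3% of 36689 features passed unadjusted, and the table's column of Wnt4hi replicate 2 followed its own scanner values less closely (correlation of deviations 0.31) than the other columns did (0.66 to 0.87). *Sfrp1* had 9.94, 7.71 and 8.09 in Wnt4hi replicates 2, 3 and 4 and 8.37, 8.57 and 9.11 in Wnt4low replicates 1, 3 and 4. Wnt4hi replicate 2 was the highest of all 6, and the other Wnt4hi arrays were the lowest. With all arrays the log2 fold change was -0.10 (SE 0.59, 95% interval -1.55 to 1.34, limma adjusted p = 0.975), an interval that holds a wide range of differences in both directions. Without Wnt4hi replicate 2 it was -0.78 and passed the unadjusted threshold (limma adjusted p = 0.407). Its sign turned without Wnt4hi replicate 3 (0.33), Wnt4hi replicate 4 (0.14) or Wnt4low replicate 4 (0.11).

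*Sfrp2* had 10.49, 6.90 and 8.15 in Wnt4hi replicates 2, 3 and 4 and 11.19, 9.18 and 9.36 in Wnt4low replicates 1, 3 and 4. Again Wnt4hi replicate 2 was high, above 2 of the Wnt4low arrays, and the other Wnt4hi arrays lay below all Wnt4low arrays. The means were 8.52 ± 1.82 and 9.91 ± 1.11 (SD, n = 3 each). The log2 fold change was -1.39 (SE 1.00, 95% interval -3.83 to 1.04, limma adjusted p = 0.733). Without Wnt4hi replicate 2 it was -2.37 and passed the unadjusted threshold (limma adjusted p = 0.311). It was -0.59 without Wnt4hi replicate 3 and -0.75 without Wnt4low replicate 1, and passed in neither. Wnt4hi replicate 3 was not well above background, so the size of the fitted differences that include it is not settled.

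Wnt4hi replicate 2 stood apart in the fibroblast and mesenchyme markers as well. Their mean level was 11.39 on that array, 9.71 and 10.15 on Wnt4hi replicates 3 and 4, and 11.67, 11.39 and 11.62 on Wnt4low replicates 1, 3 and 4. It was the highest Wnt4hi array for 7 of 7 of these markers, by a median of 1.57 over the mean of the other Wnt4hi arrays, and *Col3a1* and *Col1a2*, which encode fibrillar collagen chains, are among them. Over 28879 features measured on all 6 arrays it was the highest Wnt4hi array for 38%, with a median of 0.05, and over the 10 genes of the set for 4 (40%), also with a median of 0.05. The excess of *Sfrp1* on that array was 2.04, and 163 of the 28879 features (0.564%) were at or above that value. The excess was 0.004 for *Dkk3*. For *Sfrp2* and *Lgr5* the fitted values give 2.97 and 1.69, but 1 of the other Wnt4hi arrays for *Sfrp2* and both for *Lgr5* were not well above background, so these sizes are not settled. The mean of the endothelial markers was 8.48 on Wnt4hi replicate 2 against 8.17 and 8.25 on the other Wnt4hi arrays. On the Wnt4low arrays the mean of the fibroblast and mesenchyme markers was 11.39 to 11.67. There *Sfrp1* was 8.37 to 9.11, *Sfrp2* was 9.18 to 11.19 and *Lgr5* was well above background on 0 arrays. The part of mesenchymal cells in the *Sfrp1*, *Sfrp2* and *Lgr5* values was not tested.

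**Figure D2:**
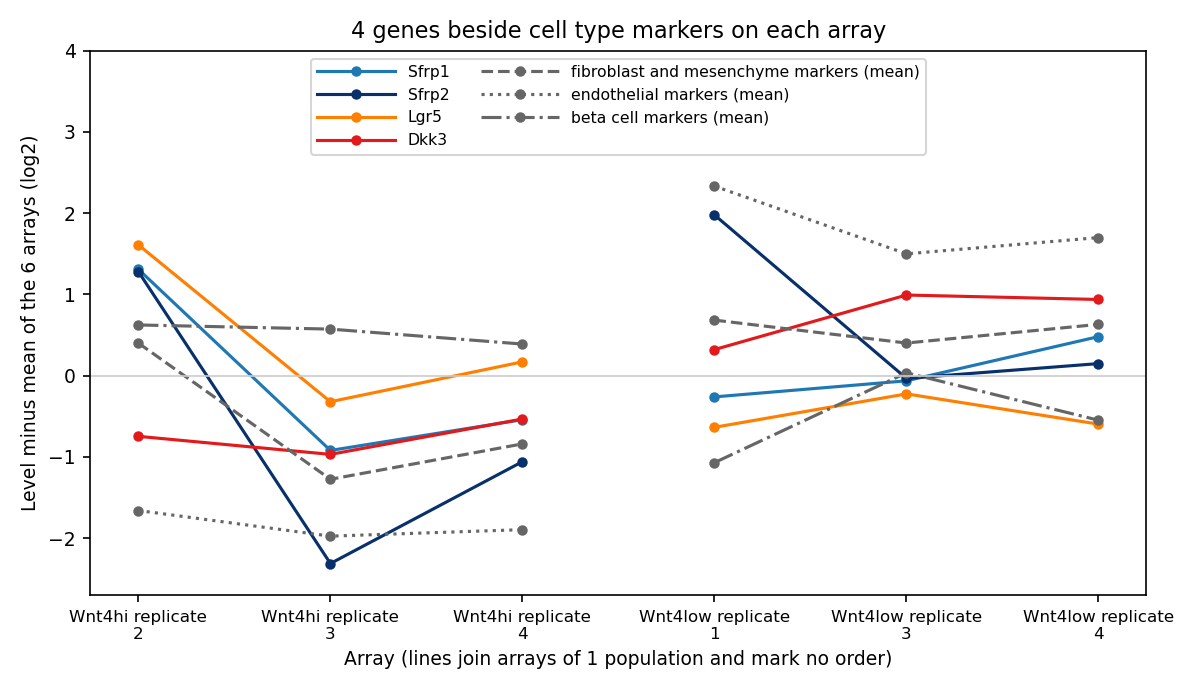
Level minus the mean of the 6 arrays (vertical axis, log2) of *Sfrp1*, *Sfrp2*, *Lgr5* and *Dkk3* in colors and of 3 marker lists in grey on each array (horizontal axis); lines join arrays of 1 population and mark no order. On Wnt4hi replicate 2 *Sfrp1*, *Sfrp2* and *Lgr5* were 1.31, 1.28 and 1.61 above their means. The fibroblast and mesenchyme markers were 0.40 above theirs on that array and 0.40 to 0.68 above it on the Wnt4low arrays. On the Wnt4low arrays *Sfrp1* lay at -0.26 to 0.48, *Sfrp2* at -0.03 to 1.98 and *Lgr5* at -0.64 to -0.22. *Dkk3* and the endothelial markers were below their means on all 3 Wnt4hi arrays.

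*Sfrp5* had the smallest standard error of the difference among the Frizzled-related genes. It had 11.39, 11.57 and 11.24 in Wnt4hi replicates 2, 3 and 4 and 11.29, 10.77 and 10.36 in Wnt4low replicates 1, 3 and 4. The Wnt4hi arrays were close together and high, and Wnt4low replicate 1 reached into their range. The means were 11.40 ± 0.17 and 10.81 ± 0.47 (SD, n = 3 each). The log2 fold change was 0.59 (SE 0.26, 95% interval -0.03 to 1.22, limma adjusted p = 0.506), and without Wnt4low replicate 1 it was 0.83 and passed the unadjusted threshold (limma adjusted p = 0.282). Without Wnt4low replicate 4 it was 0.37 and did not pass.

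*Frzb*, which binds Wnt ligands through a domain like that of Frizzled, had 10.05, 9.38 and 11.46 in Wnt4hi replicates 2, 3 and 4 on its brighter probe and 10.28, 9.48 and 10.34 in Wnt4low replicates 1, 3 and 4. Wnt4hi replicate 4 was the highest array, and the other arrays were mixed. The log2 fold change was 0.26 (SE 0.56, 95% interval -1.09 to 1.61, limma adjusted p = 0.922). It was -0.32 without Wnt4hi replicate 4 and -0.02 without Wnt4low replicate 3. The second probe had 9.71, 9.39 and 10.69 in Wnt4hi and 8.95, 9.02 and 9.84 in Wnt4low, and gave 0.66 (SE 0.41, limma adjusted p = 0.668), again with overlap.

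*Wif1*, which encodes a secreted protein that binds Wnt ligands, had 6.62, 6.63 and 7.22 in Wnt4hi replicates 2, 3 and 4 and 6.41, 6.39 and 6.54 in Wnt4low replicates 1, 3 and 4. The Wnt4hi arrays were all above the Wnt4low arrays, but the probe was not well above background on any of the 6 arrays. Such values lie in a range where signal and background are not separated, so neither a level nor a fold is given for it (limma adjusted p = 0.607).

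*Rspo3*, the R-spondin of the set, had 7.81, 8.09 and 8.02 in Wnt4hi replicates 2, 3 and 4 and 7.56, 7.97 and 8.84 in Wnt4low replicates 1, 3 and 4. The Wnt4hi arrays were close together and lay inside the range of the Wnt4low arrays. The log2 fold change was -0.15 (SE 0.33, 95% interval -0.95 to 0.66, limma adjusted p = 0.927). Its sign rested on Wnt4low replicate 4, without which it was 0.21.

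*Lgr4*, the R-spondin receptor with the wider tissue range, had 9.49, 8.94 and 9.86 on its brighter probe in Wnt4hi replicates 2, 3 and 4 and 8.38, 8.86 and 9.37 in Wnt4low replicates 1, 3 and 4. The Wnt4hi arrays tended to the upper end, with overlap between Wnt4hi replicate 3 and Wnt4low replicate 4. The log2 fold change was 0.56 (SE 0.33, 95% interval -0.25 to 1.38, limma adjusted p = 0.666). It was 0.32 without Wnt4low replicate 1 and 0.35 without Wnt4hi replicate 4. It was 0.81 without Wnt4hi replicate 3 and 0.82 without Wnt4low replicate 4, and passed the unadjusted threshold in none of these fits. The second probe had 9.13, 9.23 and 8.84 in Wnt4hi and 8.26, 9.13 and 8.28 in Wnt4low. Wnt4low replicate 3 reached the Wnt4hi range on it, and the log2 fold change was of like size, 0.51 (limma adjusted p = 0.601).

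*Lgr5*, a receptor known as a marker of Wnt-responsive stem cells in several epithelia, had 9.01, 7.07 and 7.57 in Wnt4hi replicates 2, 3 and 4 and 6.76, 7.17 and 6.80 in Wnt4low replicates 1, 3 and 4. It was well above background on 1 Wnt4hi array and on 0 Wnt4low arrays, the high value was that of Wnt4hi replicate 2, and Wnt4hi replicate 3 lay within the Wnt4low range. With Wnt4hi replicates 3 and 4, not well above background, at their measured values, the mean was at least 1.40-fold higher in Wnt4hi. This bounds the Wnt4low side only, so the size of the difference is not settled. The fitted difference was 0.97 (SE 0.49, 95% interval -0.22 to 2.17, limma adjusted p = 0.585). The bound is lost without Wnt4hi replicate 2. Without that array the difference was 0.41, in the deposited normalized table it was 0.37, and without Wnt4hi replicate 3 it was 1.36 and passed the unadjusted threshold (limma adjusted p = 0.461).

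**Figure D3:**
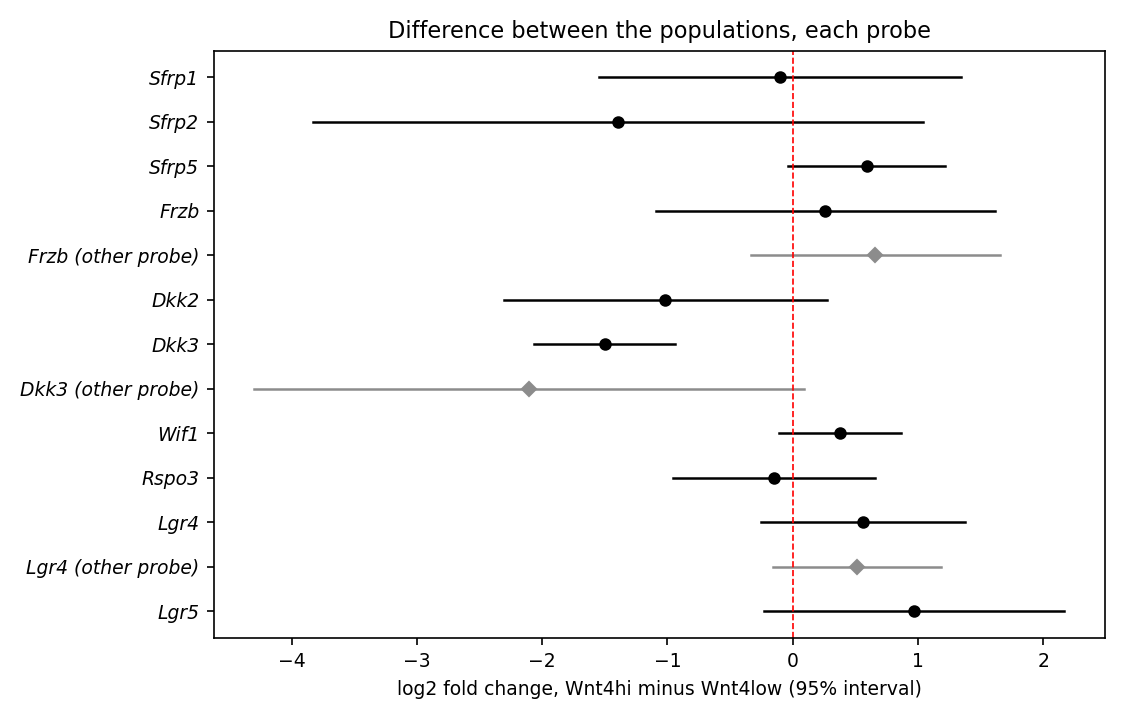
Log2 fold change, Wnt4hi minus Wnt4low (horizontal axis), with its 95% interval for each of the 13 probes; black circles stand for the gene and grey diamonds are second probes. The interval of the brighter *Dkk3* probe, -2.06 to -0.94, is the only one of the 13 that does not reach 0, and that of *Sfrp2* is the widest of the black ones.

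**Figure D4:**
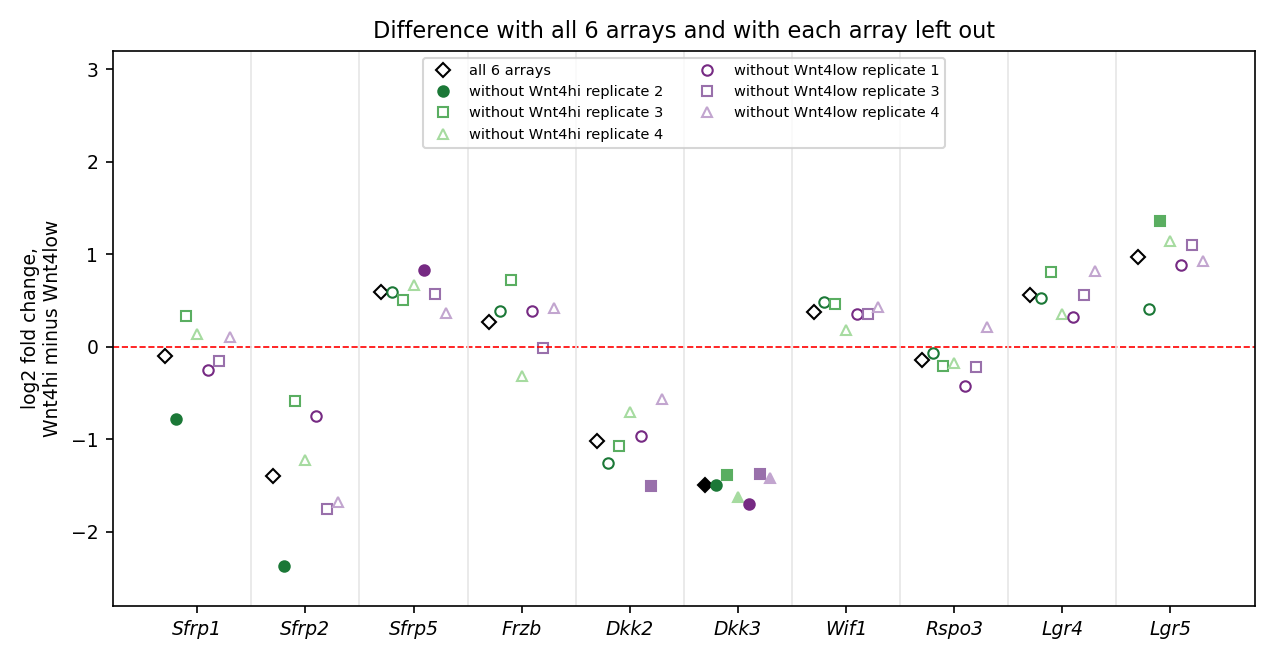
Log2 fold change, Wnt4hi minus Wnt4low (vertical axis), of each gene with all 6 arrays (diamonds) and with each array left out in turn; filled symbols have an unadjusted limma p under 0.05. *Dkk3* stayed between -1.70 and -1.38 with each array left out, whereas *Sfrp1* ran from -0.78 to 0.33.

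Genes with a like course over the 6 arrays were sought for the 6 genes measured on all of them, among 16159 named features measured on all arrays, by the root mean square difference of levels centred on their own means. Among the nearest to *Dkk3* were *Plod2* (0.13 on the log2 scale) and *Phlda1* (0.17). *Plod2* encodes a lysyl hydroxylase that acts on collagen. The 3 nearest to *Sfrp1* were *Fgf18* (0.085), *Specc1* (0.16) and *Trim68* (0.20), and for *Sfrp5* *Atg4b* (0.069), *Fhdc1* (0.087) and *Zfhx2* (0.096). For *Frzb* they were *Pon3* (0.20), *Bche* (0.26) and *Mfsd11* (0.27). For *Rspo3* they were *Tmco1* (0.072), *Zfp345* (0.075) and *Elovl5* (0.076), and for *Lgr4* *Mllt11*, *Klhl29* and *Meis2* (each 0.12). The distances are given as a description.

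The other genes of the pathway were 33 secreted inhibitors, R-spondin partners, co-receptors and feedback targets with 50 probes. At the unadjusted threshold 1 was higher in Wnt4hi (*Nkd2*, on its brighter probe), 3 were higher in Wnt4low and 29 did not pass. After adjustment 0 genes passed. At the level of single probes, the second *Nkd2* probe was lower in Wnt4hi and passed (limma adjusted p = 0.0262), against 0.475% of all probes. With 10.5% of all features past the unadjusted threshold, 4 genes of 33 are near the background share. The fitted differences were above 0 for 20 and below 0 for 13, with a median of 0.07, and 4 genes were well above background on 0 arrays. Of the 15 other inhibitors and inhibitor co-receptors 1 passed, of the 6 other R-spondin axis genes 1, of the 6 Wnt co-receptors 1 and of the 6 feedback targets 1. Probes of a gene did not always run together: *Lrp4* gave -0.09 and 0.01 on its brighter probes, but -2.61 and -1.38 (limma adjusted p = 0.173 and 0.299) on dimmer ones that were well above background on 1 Wnt4hi array each. *Kremen1* gave 0.07, -0.78 and 0.24, the -0.78 with all Wnt4hi arrays below all Wnt4low arrays (limma adjusted p = 0.334). Both genes were chosen for mention after their values were seen.

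*Igfbp4*, a binding protein of insulin-like growth factors that also binds Lrp6 and Frizzled, gave the smallest p of these. It had 9.78, 9.13 and 9.30 in Wnt4hi replicates 2, 3 and 4 and 10.84, 11.51 and 11.31 in Wnt4low replicates 1, 3 and 4. The populations lay apart on this probe, with a log2 fold change of -1.82 (SE 0.25, limma adjusted p = 0.0596), but on its other probe Wnt4hi replicate 2 reached 10.33, above 2 Wnt4low arrays, and the value was -1.17 (limma adjusted p = 0.570).

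*Rspo1*, a second R-spondin, had 7.92, 7.15 and 7.23 in Wnt4hi and 8.69, 7.98 and 8.88 in Wnt4low, in the same replicate order. All Wnt4low arrays were higher, but only 1 Wnt4hi array was well above background, so the size of the fitted log2 fold change of -1.08 (SE 0.32, limma adjusted p = 0.282) is not settled. *Ror1*, a co-receptor of Wnt ligands that act without beta-catenin, had 7.09, 7.27 and 7.43 in Wnt4hi and 7.55, 7.64 and 7.99 in Wnt4low. Its arrays also lay apart, at a smaller difference of -0.46 (SE 0.18, limma adjusted p = 0.429). Only 1 Wnt4hi array was well above background for *Ror1*, so neither the size of its difference nor the gap between the populations is settled. The endothelial markers (8 of 8 lower in Wnt4hi at the unadjusted threshold), fibroblast and mesenchyme markers (4 of 7) and pericyte and smooth muscle markers (3 of 6) moved beside these genes, and their part was not tested.

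*Nkd2*, a feedback inhibitor inside the cell, had 12.80, 13.14 and 12.88 in Wnt4hi and 12.29, 12.46 and 12.72 in Wnt4low on its brighter probe. The Wnt4hi arrays were all above the Wnt4low arrays, by 0.45 (SE 0.17, limma adjusted p = 0.429). Its second probe ran the other way, with 6.66, 6.62 and 6.69 in Wnt4hi, on 0 arrays well above background, and 8.73, 9.39 and 9.46 in Wnt4low. That is at least 3.63-fold lower in Wnt4hi (limma adjusted p = 0.0262 over all probes), so the probes of *Nkd2* disagree and no direction is given for the gene. *Axin2*, a feedback target of the beta-catenin branch chosen for mention after its value was seen, gave 0.17 (SE 0.27, limma adjusted p = 0.888), with 8.94 in Wnt4hi and 8.76 in Wnt4low on average.

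**Figure D5:**
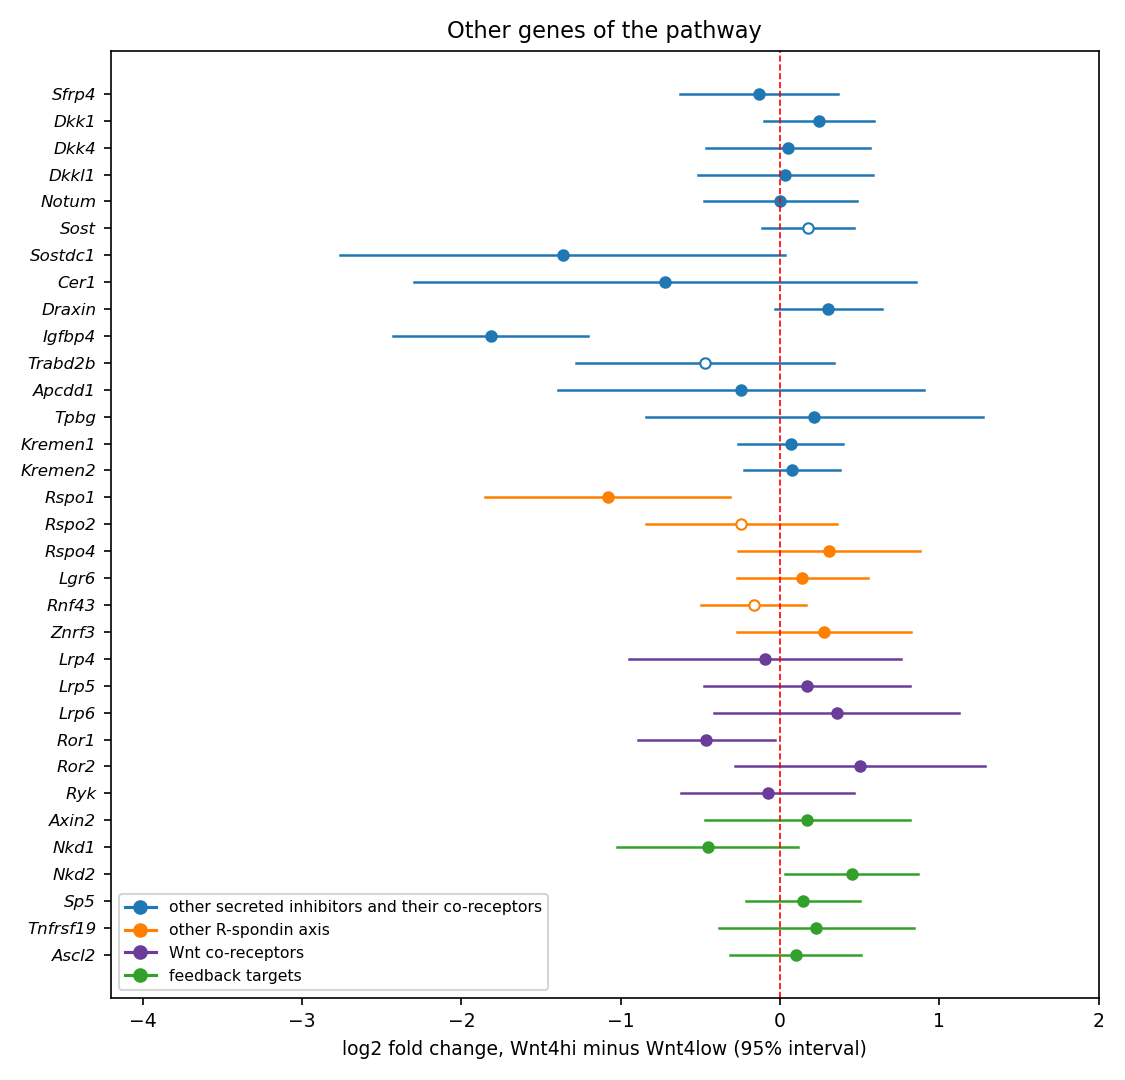
Log2 fold change, Wnt4hi minus Wnt4low (horizontal axis), with its 95% interval for the 33 other genes of the pathway, colored by role; hollow circles are probes well above background on 0 of 6 arrays. The intervals of *Igfbp4*, *Rspo1* and *Ror1* lie below 0 and that of the brighter *Nkd2* probe above 0, and the other 29 reach 0. The second *Nkd2* probe, lower in Wnt4hi, is not drawn.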

How the data were processed

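For each array the authors deposited scanner output of Agilent Feature Extraction (version 9.1 per the submitters' processing notes) with the red-channel (Cy5) intensity and local background intensity of each spot, not normalized. They also deposited normalized log2 values per gene, a table which served as an alternative. RNA had been amplified from picogram amounts before labelling, which can widen the spread of dim genes.

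Median intensities were corrected with normexp (offset 50), log2 transformed and quantile normalized, as the methods of the study state for limma, and 50 to 141 outlier spots per array were left out. Spots of 1 probe were averaged, and the brightest probe over all 6 arrays stood for a gene, also in every alternative but the mean of its probes and the authors' table. Of 56605 probes 32994 were named through RefSeq transcripts (GRCm38.p6, names only). Populations were compared with lmFit and eBayes (limma 3.58.1, R 4.3.3) over 45616 features with no covariate, p-values were adjusted by Benjamini-Hochberg, and intervals are from the moderated test. The calculation was tested on simulated data. A bound ("at least") raises a dim array to the lowest level that counted as well above background there, unless its measured value was higher. The arrays lay on 1 slide, so no batch was tested, and precision is limited by the number of arrays.

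Members, marker lists and alternatives were chosen with earlier results of these data known. Named are all 10 members, the other pathway genes past the unadjusted threshold and well above background on the higher arrays, at most 3 markers per list by brightness (with *Tie1* named after its values were seen), and the 3 nearest profiles, of which 1 is not reported here.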

Additional observations from a re-analysis of the deposited data

How the results depend on the processing

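The difference of *Dkk3* and that of *Wnt4* (0.80 to 1.25) kept their sign and their side of the unadjusted threshold under all 17 alternatives run with limma, and after adjustment 1 of the 7 genes with a value (*Dkk3*) passed with dim probes left out, where 504 of 31996 features did, against 0 otherwise. The count of genes higher in Wnt4low, 1 with all arrays, was 3 (*Sfrp1*, *Sfrp2* and *Dkk3*) in the authors' table, in that table without Wnt4hi replicate 2 (an alternative chosen after seeing the data) and with the replicate block, and 1 to 3 with 1 array left out. The count higher in Wnt4hi, 0 with all arrays, was 1 with the processed signal (*Lgr5*), with the mean of the probes of a gene (*Lgr4*), in the authors' table and with the replicate block (*Sfrp5* in both), and 0 to 1 with 1 array left out. Of the other pathway genes the count higher in Wnt4hi, 1 (*Nkd2*), became 0 with no background subtraction, an offset of 16, median centring, dim probes left out, the mean of probes, the authors' table or the replicate block, and was 0 to 1 with 1 array left out. With the processed signal (*Draxin*) and without Wnt4hi replicate 3 (*Ror2*) or Wnt4low replicate 1 (*Znrf3*) it was 1 by another gene. The count higher in Wnt4low, 3, became 5 with the mean of probes, *Nkd2* now among them, and was 2 to 4 under the other alternatives. With 1 array left out it was 2 to 3. Signs turned with 1 array left out for *Sfrp1* (-0.78 to 0.33), *Frzb* (-0.32 to 0.73) and *Rspo3* (-0.43 to 0.21). The cause of these changes was not tested. Equal replicate numbers occur for 3 and 4 only, and deviations of equally numbered arrays correlated at -0.02 and 0.15, which does not show that the numbers pair the arrays. Pool sizes match by number (4 pups for 3, 3 pups for 4), and the labels do not say whether equally numbered arrays came from 1 pool. Since numbers 1 and 2 occur once each, the replicate block takes the difference from 4 arrays, without Wnt4hi replicate 2 and Wnt4low replicate 1. Under it *Sfrp1* was -0.94, *Sfrp2* -1.74, *Sfrp5* 0.84 and *Dkk3* -1.72, while *Lgr5* was 0.34 and *Lgr4* 0.29, and 0 features passed after adjustment. In the authors' table *Sfrp1* was -0.85, *Sfrp2* -2.12, *Sfrp5* 0.65 and *Lgr5* 0.37, and its column of Wnt4hi replicate 2 followed its own scanner values at a correlation of deviations of 0.31, against 0.66 to 0.87 for the other columns. With dim probes left out *Dkk2*, *Wif1* and *Lgr5* gave no value, and the slide could not be a block because there was 1. *Dkk2*, *Wif1* and *Lgr5* are limited by dim signal, and all genes by 3 arrays per population.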
